A study of Homo sapiens with 8 samples.

Results

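Genes for inflammatory cytokines and chemokines were followed in the established human ovarian cancer line SKOV3, with and without added low-density lipoprotein (LDL), the particle that delivers cholesterol to cells through the LDL receptor. They were taken by name from the deposited gene tables, and all 10 of 10 were found among 22554 features: CSF2, IL6, LIF, IL1A, IL1B, CXCL8, CXCL1, CXCL2, CXCL3 and CCL2. The 4 control samples grew in ordinary McCoy's 5A medium with antibiotics and 10% fetal bovine serum, which itself carries lipoproteins. The 4 LDL samples received LDL at 50 µg/mL for 48 h in the same incubator and medium, and no vehicle is named for the controls. All 8 samples come from 1 cell line, and nothing in the labels says that replicates were cultured separately, so p-values measure only the spread between these libraries, part or all of which may be technical.

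The proteins of these genes are secreted signals that call in and activate leukocytes. Their promoters are switched on by NF-kB and AP-1 transcription factors, downstream of receptors for interleukin 1 and tumour necrosis factor, and their messenger RNAs are short-lived because AU-rich elements recruit decay proteins. Ovarian carcinoma cells are known to secrete IL6, CXCL8 and CXCL1, and ascites of patients holds high levels of them.

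Total counts ran from 34682501 to 44883561, with the LDL libraries all shallower than the shallowest control. Levels within a gene are given as CPM (counts scaled to the library total), with totals adjusted by the TMM method so that a few very abundant genes do not shift the rest. Levels between genes are given as the deposited FPKM, which are also scaled to gene length. All 10 genes passed the filter on low counts. The line's own 8 markers, ERBB2 and keratins among them, summed to 5982 to 6446 CPM in the controls and 6097 to 6610 CPM with LDL. Of these markers 7 had a mean above 1 CPM, and the sum does not show the less abundant of them. Of 10 leukocyte markers PTPRC, ITGAM and AIF1 had a count of 0 in all 8 libraries and 1, CD68, was above 1 CPM. The leukocyte list summed to 38.8 to 50.4 CPM in the controls and 49.8 to 53.6 CPM with LDL. Almost all of that sum is CD68, at 37.7 to 52.8 CPM over the 8 libraries. In bulk RNA, fewer cells of a kind and less RNA per cell cannot be told apart.

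CXCL1, CXCL2 and CXCL3 are close copies of each other, which bears on how their reads can be told apart. Their coding sequences are 324 bases long each, and the identity was 93.5% for CXCL1 with CXCL2, 90.7% for CXCL1 with CXCL3 and 94.4% for CXCL2 with CXCL3, against 52.5% for CXCL1 with CXCL8. Coding bases 181 to 270 (GENCODE release 29 transcripts, counted from the start codon) are shown for the 3 genes, with the 9 positions that vary in capitals.
CXCL1: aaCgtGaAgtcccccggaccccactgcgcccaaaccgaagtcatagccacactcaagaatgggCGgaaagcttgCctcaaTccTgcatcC
CXCL2: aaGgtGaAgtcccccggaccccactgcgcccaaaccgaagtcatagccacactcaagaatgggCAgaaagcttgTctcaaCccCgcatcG
CXCL3: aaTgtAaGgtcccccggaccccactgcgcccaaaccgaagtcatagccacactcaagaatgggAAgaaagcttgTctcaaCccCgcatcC
The longest run without a difference was 97 bases between CXCL2 and CXCL3, and 61 bases between CXCL1 and CXCL2. Reads that fall within such runs could fit either copy, so the split between these 3 genes is uncertain. How such reads were counted is not known, and this may touch the sum as well. Only the coding bases were compared, out of transcripts of 1097 (CXCL1), 1218 (CXCL2) and 1075 bases (CXCL3).

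The promoters were searched for an NF-kB consensus, since that factor is the textbook inducer of these genes. RefSeq promoter entries (GRCh38.p14) were found for 8 of the 10 genes, all but CCL2 and LIF. The 250 bases before the start in each entry were searched on both strands. The NF-kB consensus was found in 4 of the 8 (IL6, CXCL1, CXCL2 and CXCL3), and in 9.96% of 35114 promoters. For the other genes the lack of a match means only that the exact letters searched are not in these 250 bases. The AP-1 motif TGANTCA was found in 2 of the 8 (CXCL8 and IL1A), and in 6.57% of all promoters. The 30 bases around the NF-kB match, from 90 to 61 bases before the start, are shown with the match in capitals; in CXCL1, CXCL2 and CXCL3 it consists of 2 overlapping matches, 1 on each strand.
CXCL1: tctggaactccGGGAATTTCCCtggcccgg
CXCL2: atctggagctccGGGAATTTCCCtggcccg
CXCL3: tctggagctccGGGAATTTCCCtggcccgg
IL6: aaagatttatcaaatgtGGGATTTTCCcat
These windows lie at chr4:73869303-73869332 (plus strand), chr4:74099256-74099285 and chr4:74038750-74038779 (minus strand) and chr7:22727110-22727139 (plus strand). The start here is that of the RefSeq entry, which is the GENCODE gene start for CXCL1 but not for CXCL2, CXCL3 and IL6. The windows of CXCL2, CXCL3 and IL6 lie inside the GENCODE gene spans given below. The 11 bases in capitals are the same in the 3 CXCL genes, and the IL6 site differs. CSF2 had none of the 5 motifs searched in its 250 bases (the NF-kB, AP-1 and C/EBP motifs, TGACGTCA and TATAAA), which says only that these letters are not in this window. The 100 bases before its start, chr5:132073689-132073788 on the plus strand, are shown because CSF2 is the gene with the largest difference between the groups.
CSF2: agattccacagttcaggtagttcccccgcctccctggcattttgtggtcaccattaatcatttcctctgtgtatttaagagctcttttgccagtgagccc

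Per length, CXCL1 was by far the most abundant of the 10 messages. Its mean in control samples was 472 ± 42.4 FPKM (SD, n = 4), followed by CXCL8 at 62.4 ± 8.88 and CXCL2 at 40.0 ± 4.71 FPKM. IL6 (20.5 ± 1.76), IL1A (18.1 ± 2.07), CXCL3 (15.9 ± 1.45) and LIF (15.0 ± 0.536 FPKM) came next, and in the control samples each of these overlapped its neighbour in this order. IL1B (7.17 ± 0.239 FPKM) lay above CSF2 (5.18 ± 1.11 FPKM) in every control sample, while in the LDL samples the ranges of the pair overlapped. CCL2 was the least abundant at 2.74 ± 0.412 FPKM.

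The comparison of the groups asks whether LDL, which the series title links to metastasis, moved the messages for these signals. None of the 10 passed an adjusted p under 0.05 in edgeR's quasi-likelihood test over 15432 features, in which 10 features, or 0.0648%, passed. At an unadjusted p under 0.05 there were 2 of the 10, CSF2 and CXCL8, against 5.59% of all features. DESeq2, limma voom and limma on FPKM values also passed none of the 10. The log2 fold change was above 0 in 8 and below 0 in 2, with a median of 0.18, beside a median of 0.0060 over all features tested. The highest of the 8 values was in an LDL sample for all 10 genes, and for 60.9% of all features. The lowest was in a control sample for 6 of the 10, and for 42.5% of all features. CSF2 was the 1 gene whose groups did not overlap, with higher LDL values, against 1.74% of all features. That gap was narrow, and on the FPKM scale the 2 groups of CSF2 overlapped.

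**Figure D1:**
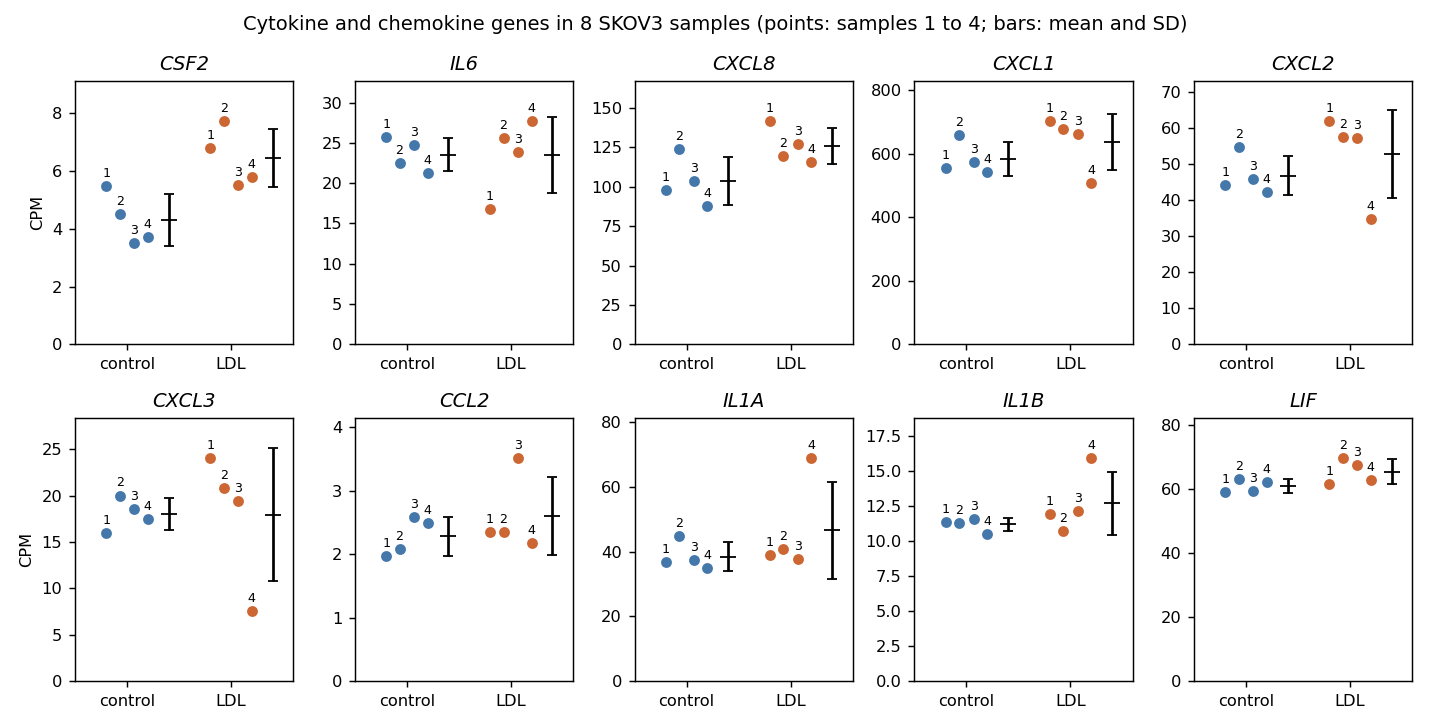
CPM (y axis, linear from 0) of each gene in the control samples (blue) and LDL samples (orange), with sample numbers beside the points and the mean and SD of each group in black. The groups are narrowly apart for CSF2, and LDL sample 4 lies below the rest for CXCL1, CXCL2 and CXCL3 and above the rest for IL6, IL1A and IL1B.

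**Figure D2:**
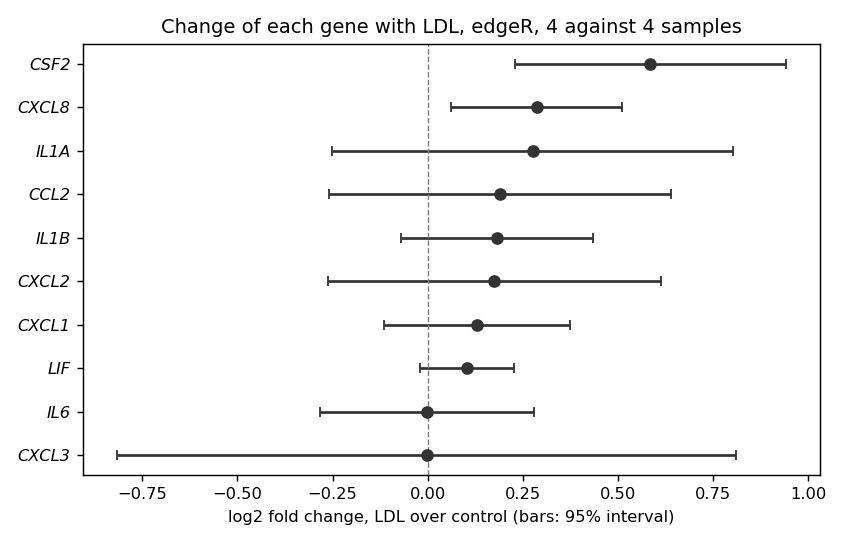
Log2 fold change of LDL over control for each gene (points) with its 95% interval (bars) from edgeR, 4 samples in each group. The intervals of CSF2 and CXCL8 lie above 0, and that of CXCL3, from -0.82 to 0.81, is the widest.

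CSF2 encodes GM-CSF, a growth factor for granulocytes and macrophages. The gene (ENSG00000164400) spans chromosome 5 from 132073790 to 132076170 (GRCh38, plus strand), and its transcript has 4 exons. Its level was 5.48, 4.51, 3.51 and 3.70 CPM in control samples 1 to 4 and 6.79, 7.73, 5.51 and 5.80 CPM in LDL samples 1 to 4. The lowest LDL sample lay just above the highest control sample, at counts of 191 and 226 in libraries of unequal depth. In FPKM the order of that pair was turned, with 6.61 in LDL sample 3 and 6.64 in control sample 1. The means were 4.30 ± 0.895 and 6.46 ± 1.01 CPM (SD, n = 4 each), a ratio of 1.50 (log2 fold change 0.59, SE 0.169, 95% interval 0.23 to 0.94). edgeR gave an unadjusted p of 0.00302 and an adjusted p of 0.541, so the difference did not pass over all features. The log2 fold change ran from 0.49 without LDL sample 2 to 0.72 without control sample 1, and the adjusted p of any setting tried did not go below 0.121.

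IL6 encodes interleukin 6, which signals through IL6R and the shared receptor subunit IL6ST. The gene (ENSG00000136244) spans chromosome 7 from 22725884 to 22732002 (plus strand), and its transcript with the longest coding sequence has 6 exons. Its level was 25.7, 22.5, 24.7 and 21.3 CPM in control samples 1 to 4 and 16.8, 25.6, 23.9 and 27.7 CPM in LDL samples 1 to 4. LDL sample 1 was the lowest of the 8 and LDL sample 4 the highest, so the LDL range took in all controls. The ratio of the groups was 0.999 (log2 fold change -0.0018, 95% interval -0.28 to 0.28, edgeR adjusted p = 0.998), an interval that leaves changes of up to 0.28 in either direction undetected. Leaving out LDL sample 1 gave a log2 fold change of 0.13 (edgeR adjusted p = 0.537). On the opposite strand STEAP1B overlaps IL6, with 27 counts over all 8 libraries. AC073072.1 also overlaps IL6 there and was not found by name or gene identifier among the features.

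LIF, leukaemia inhibitory factor, belongs to the same cytokine family as IL6. The gene (ENSG00000128342) spans chromosome 22 from 30240447 to 30246851 (minus strand), with 3 exons in its transcript. LIF-AS1 and AC004264.1 overlap LIF on the opposite strand, and neither was found by name or gene identifier among the features. Its level was 59.0, 63.1, 59.3 and 62.4 CPM in control and 61.7, 69.8, 67.6 and 62.9 CPM in LDL samples. LDL samples 2 and 3 lay above all controls, and samples 1 and 4 lay within the control range. LIF had the smallest relative spread of the 10 in both groups, 3.44% of the mean in control and 5.81% in LDL samples, and its log2 fold change was 0.10 (SE 0.0587, 95% interval -0.020 to 0.23, edgeR adjusted p = 0.884). Changes above 0.23 on the log2 scale lie outside that interval.

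IL1A and IL1B encode the interleukin 1 cytokines alpha and beta, upstream activators of NF-kB in neighbouring cells. IL1A (ENSG00000115008, chromosome 2 from 112773915 to 112784590) and IL1B (ENSG00000125538, chromosome 2 from 112829751 to 112836903) both lie on the minus strand, 45160 bases apart, with 7 exons each. The level of IL1A was 36.7, 44.9, 37.3 and 35.0 CPM in control samples and 38.9, 40.7, 37.7 and 69.0 CPM in LDL samples. LDL samples 1 to 3 lay inside the control range, and LDL sample 4 stood at 1.54 times the highest of the other 7. The level of IL1B was 11.3, 11.3, 11.5 and 10.5 CPM in control and 11.9, 10.7, 12.2 and 15.9 CPM in LDL samples, with LDL sample 4 at 1.31 times the highest of the others. The log2 fold change was 0.28 for IL1A (SE 0.22, 95% interval -0.25 to 0.80, edgeR adjusted p = 0.919) and 0.18 for IL1B (SE 0.119, edgeR adjusted p = 0.884). Without LDL sample 4 these values were 0.024 and 0.054.

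The chemokines CXCL8, CXCL1, CXCL2 and CXCL3 attract neutrophils through the receptor CXCR2, and CXCL8 also through CXCR1. They lie in 1 cluster on chromosome 4 that spans 358788 bases, each with 4 exons in its transcript. CXCL8 (ENSG00000169429, 73740506 to 73743716) and CXCL1 (ENSG00000163739, 73869393 to 73871242) are on the plus strand, and CXCL3 (ENSG00000163734, 74036589 to 74038807) and CXCL2 (ENSG00000081041, 74097035 to 74099293) are on the minus strand. Other genes of the cluster were silent or nearly so: PF4 and PPBP, which lie between CXCL1 and CXCL3, had a count of 0 in all 8 libraries, and CXCL5 and CXCL6 had 64 and 25 counts over all libraries. A count of 0 allows a level of up to 3 counts, which is 0.0673 to 0.0872 CPM in these libraries and covers counting error only.

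CXCL8, or interleukin 8, stood at 98.1, 124, 104 and 87.8 CPM in control and 142, 120, 127 and 116 CPM in LDL samples. LDL samples 1 and 3 lay above all controls, and control sample 2 lay above LDL samples 2 and 4. The means were 103 ± 15.3 and 126 ± 11.4 CPM (SD, n = 4 each), a ratio of 1.22 (log2 fold change 0.29, SE 0.101, 95% interval 0.062 to 0.51). The unadjusted edgeR p was 0.0174 and the adjusted p 0.822, so CXCL8 did not pass. With each sample left out in turn its log2 fold change ran from 0.21 to 0.39.

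CXCL1 stood at 556, 659, 573 and 541 CPM in control and 702, 677, 663 and 507 CPM in LDL samples. CXCL2 stood at 44.4, 54.9, 46.0 and 42.4 CPM in control and 62.0, 57.6, 57.2 and 34.9 CPM in LDL samples. CXCL3 stood at 16.0, 20.0, 18.6 and 17.4 CPM in control and 24.1, 20.8, 19.4 and 7.58 CPM in LDL samples. All 3 had their lowest value of the 8 in LDL sample 4 and their highest in LDL sample 1, and in each of them control sample 2 was the highest control. The log2 fold changes were 0.13 for CXCL1 (95% interval -0.12 to 0.37), 0.18 for CXCL2 (-0.26 to 0.61) and -0.0026 for CXCL3 (-0.82 to 0.81), with edgeR adjusted p of 0.925, 0.942 and 0.998. With the 3 counted as 1 feature, because of their shared sequence, the sum had a log2 fold change of 0.13 with an SE of 0.12 (edgeR adjusted p = 0.931).

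The values of the 3 genes turned on LDL sample 4. Without it the log2 fold change was 0.22 for CXCL1, 0.33 for CXCL2 and 0.25 for CXCL3, with edgeR adjusted p of 0.247, 0.195 and 0.8294. Then 3 of the 10 genes, CSF2, CXCL1 and CXCL2, had LDL values above all controls, against 3.18% of all features, for CXCL1 by 663 against 659 CPM. Without LDL sample 1 it was 1 of the 10, CSF2, against 7.2% of all features, and without both it was 4 (CSF2, CXCL1, CXCL2 and LIF) against 12.7%. None of the 10 passed the adjusted threshold in any of these fits. These samples were left out with their values known. LDL sample 4 held the lowest values of CXCL1, CXCL2 and CXCL3, so leaving it out favours a gap between the groups for them. The shares over all features do not allow for that choice.

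The low level in LDL sample 4 was unequal among the 3 copies. Against the mean of the other LDL samples it held 74.4% of the CXCL1 level, 59.3% of CXCL2 and 35.4% of CXCL3. CXCL3 made up 2.59% to 2.92% of the summed counts of the 3 genes in control samples and 2.62% to 3.05% in LDL samples 1 to 3. In LDL sample 4 it made up 1.38% (264 of 19130 counts, 95% Wilson interval 1.22% to 1.56%), below the interval of each of the other 7 libraries, the lowest of which began at 2.40%. These intervals cover counting error only, and the assignment of reads between the copies is a further source of error.

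**Figure D3:**
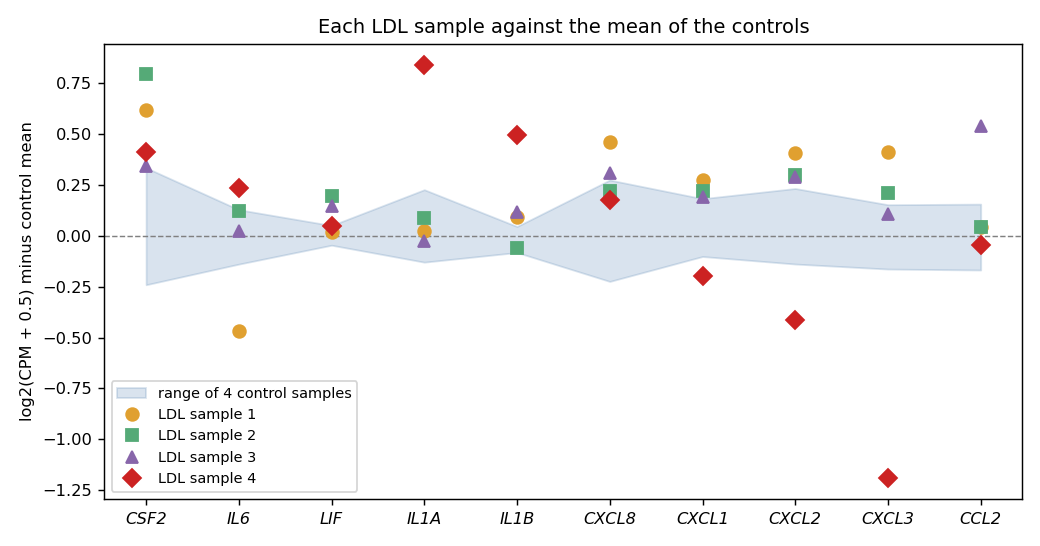
Level of each LDL sample (points) relative to the mean of the 4 control samples on the log2(CPM + 0.5) scale (y axis), for the 10 genes (x axis), with the range of the control samples shaded. LDL sample 4 reaches 0.84 for IL1A and -1.19 for CXCL3, while the 4 LDL samples all lie above the shading for CSF2, LDL sample 3 by 0.34 against 0.33.

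CCL2, which attracts monocytes through the receptor CCR2, was the rarest of the messages. The gene (ENSG00000108691) spans chromosome 17 from 34255218 to 34257203 (plus strand), with 3 exons. Its counts were 81, 78, 100 and 111 in control and 87, 81, 122 and 76 in LDL samples, or 1.96, 2.08, 2.58 and 2.49 CPM against 2.35, 2.35, 3.52 and 2.18 CPM. LDL sample 3 was the highest of the 8, and the other 3 LDL samples lay inside the control range. The log2 fold change was 0.19 (95% interval -0.26 to 0.64, edgeR adjusted p = 0.943), and without LDL sample 3 it was 0.010.

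The LDL samples thus differed among themselves in opposite directions for different genes. LDL sample 4 held the highest of the 8 values for 3 genes (IL6, IL1A and IL1B) and the lowest for 3 (CXCL1, CXCL2 and CXCL3), beside 20.0% and 19.7% of all features. LDL sample 1 held the highest value for 4 (CXCL8, CXCL1, CXCL2 and CXCL3) and the lowest for 1 (IL6), beside 16.1% and 15.7% of all features. The relative spread was wider in LDL than in control samples for 8 of the 10 genes, against 64.5% of all features, and without LDL sample 4 for 5 of the 10, against 55.7%. The same LDL sample 4 held 172 CPM summed over 7 listed fibroblast genes, against 386 to 444 CPM in the other 7 libraries. Most of that sum is COL1A1, at 146 CPM in LDL sample 4 and 343 to 398 CPM in the others, and COL1A2, COL3A1 and PDGFRB were also lowest there. DCN (1.55 CPM), LUM (4.74 CPM) and THY1 (0.402 CPM) lay within the range of the other 7 libraries, so 4 of the 7 were lowest there and 3 were not. Of those 7 genes 5 were above 1 CPM and none was at 0 in all libraries, and their part in the chemokine and interleukin 1 values was not tested.

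**Figure D4:**
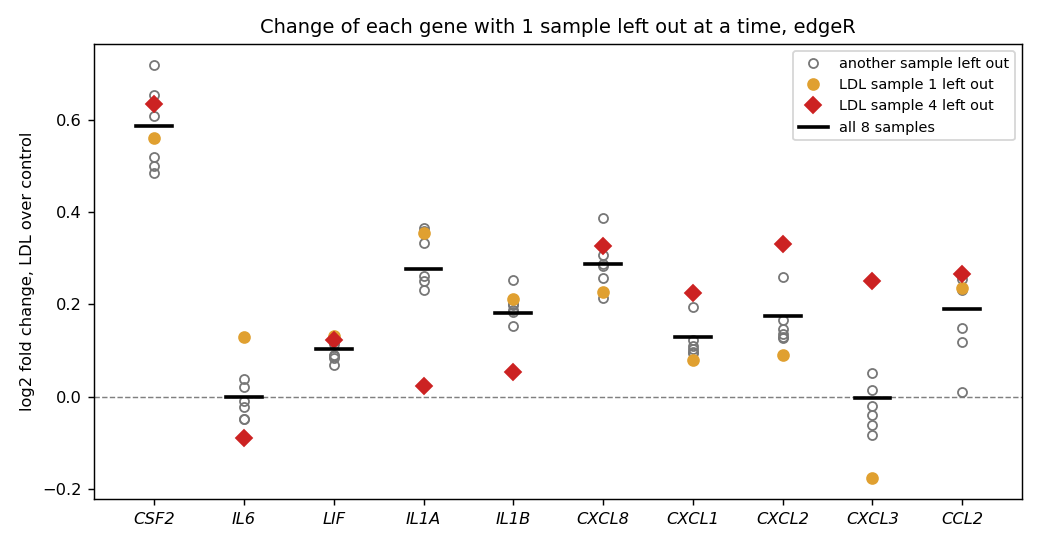
Log2 fold change of each gene (y axis) with all 8 samples (black bar) and with 1 sample left out at a time (points), from edgeR. CSF2 stays between 0.49 and 0.72, and leaving out LDL sample 4 (red) takes IL1A to 0.024 and CXCL3 to 0.25.

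The receptors for these signals were only partly present. CXCR1, CXCR2, CCR2, CSF2RB and ACKR1 had a count of 0 in all 8 libraries, and CSF2RA had 64 counts in all, so the known signalling receptors of the chemokines and the shared GM-CSF subunit were not detectable at this depth. IL6ST (21.0 FPKM over all samples) and the inhibitory SIGIRR (20.6 FPKM) were the most abundant receptors per length, and their sample values overlapped. IL6R, LIFR, IL1R1, IL1RAP and IL1R2 were also tested. None of the 7 tested receptors passed, with a median log2 fold change of 0.044. The smallest p belonged to SIGIRR (26.4 CPM without and 29.4 CPM with LDL, edgeR adjusted p = 0.882) and IL6R (13.1 and 14.6 CPM, edgeR adjusted p = 0.884).

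Genes of the NF-kB pathway were listed next, with some NF-kB target genes among them and no AP-1 genes. Of 25 NF-kB subunits, kinases and feedback genes none passed in edgeR and 1, NFKB2, had an unadjusted p under 0.05 (5.59% of all features did), 12 lay above and 13 below 0, and the median was -0.00066. NFKB2, the p100 subunit gene, had 69.8 CPM without and 76.1 CPM with LDL, and its groups did not overlap, the 1 gene of the 25 with higher LDL values against 1.74% of all features (log2 fold change 0.12, edgeR adjusted p = 0.876). IKBKG, the regulatory subunit of the IkB kinase, had a log2 fold change of 0.18 (edgeR adjusted p = 0.884), and IER3, the most abundant of the list per length, was at 331 and 346 CPM. Feedback inhibitor genes NFKBIA (log2 fold change 0.059) and TNFAIP3 (0.083) also did not pass. Without LDL samples 1 and 4, samples chosen for omission with their values known, IER3 passed with a log2 fold change of 0.16 (edgeR adjusted p = 0.0422). In that fit 108 features were called higher and 140 lower out of 15944.

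No gene passed edgeR in the lists of receptor signalling and message decay, and none had an unadjusted p under 0.05; the same holds for the receptors above and for the chemokines and cytokines below. DESeq2 and limma called no gene of any list. The list of interleukin 1 receptor signalling and release had 19 tested genes and a median of -0.0058, with the ubiquitin ligase gene TRAF6 at -0.11 and CASP8 at -0.079, and IRAK1 was its most abundant gene per length. The list of IL6 and LIF receptor signalling had 17 tested genes and a median of -0.012. Its lowest p belonged to the feedback gene CISH (5.84 and 6.86 CPM) and the kinase gene JAK1 (449 and 418 CPM), which was also the most abundant, with edgeR adjusted p of 0.884 each. Of 17 RNA-binding regulators, with a median of 0.018, ZFP36, whose protein tristetraprolin destroys AU-rich messages, stood at 8.22 and 9.60 CPM (edgeR adjusted p = 0.884). CNOT1, the scaffold of the deadenylase complex, stood at 238 and 219 CPM (log2 fold change -0.12, edgeR adjusted p = 0.884). Without LDL sample 1, CNOT1 passed with a log2 fold change of -0.20 (edgeR adjusted p = 0.0293). In that fit 47 features were called higher and 102 lower out of 15625. The sample left out held the highest CNOT1 level of the LDL samples, at 259 CPM against 203 to 211 CPM.

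Of 31 other chemokines 16 had a count of 0 in all libraries and 5 were tested, with a median of -0.097 and none past the threshold. CCL20, which attracts CCR6-bearing lymphocytes, was the most abundant of them per length and stood at 7.90, 9.82, 8.68 and 9.14 CPM in control and 11.1, 10.8, 11.8 and 7.32 CPM in LDL samples. As with CXCL1, LDL samples 1 to 3 lay above all controls and LDL sample 4 below them (log2 fold change 0.21, edgeR adjusted p = 0.884). CXCL16 stood at 17.5 and 16.1 CPM (edgeR adjusted p = 0.913). Of 30 other cytokines 18 were tested, with a median of 0.057 and none past the threshold. IL18, a cytokine of the interleukin 1 family, stood at 37.0, 36.2, 35.8 and 31.6 CPM in control and 35.0, 37.7, 38.0 and 55.9 CPM in LDL samples, so that LDL sample 4 was the highest as it was for IL1A and IL1B. CSF1, the macrophage growth factor, was at 138 and 128 CPM (log2 fold change -0.11, edgeR adjusted p = 0.884), and MIF was the most abundant of the list at 570.0 FPKM.

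**Figure D5:**
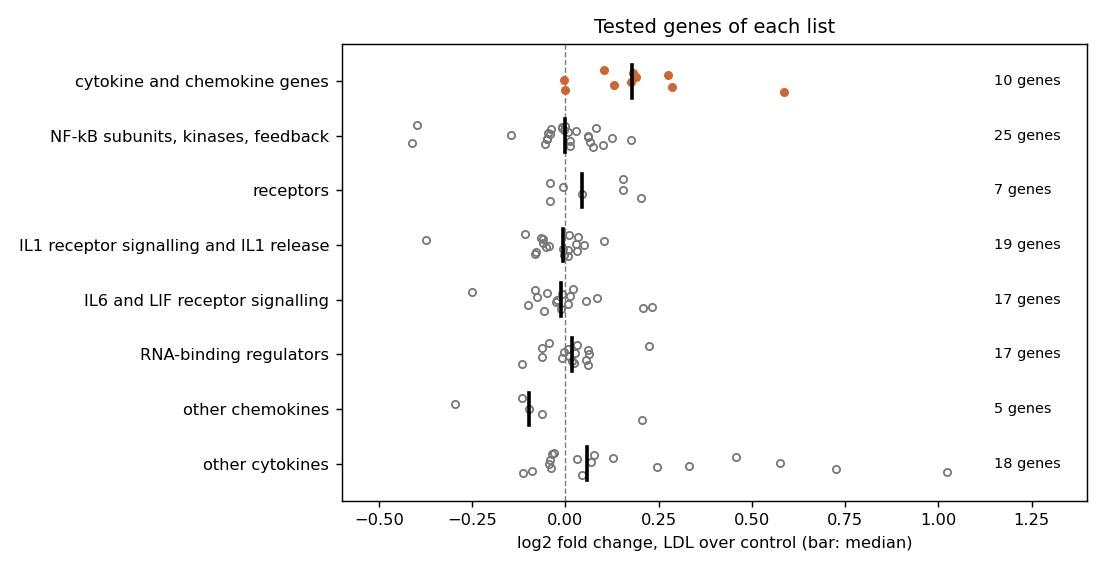
Log2 fold change of LDL over control (x axis) for each tested gene of the 10 cytokine and chemokine genes (orange) and of 7 lists of related genes (grey), with the median of each as a black bar and the number of genes at the right. The median of the cytokine and chemokine genes is 0.18, and those of the lists run from -0.097 to 0.057.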

How the data were processed

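RNA of 8 SKOV3 samples was sequenced after stranded TruSeq mRNA library preparation, per the labels' protocols. The authors deposited a table of counts and a table of FPKM, which they had scaled to gene length and library size. HISAT2, featureCounts, DESeq2 1.26.0 and GRCh38 are named in the submitters' processing notes; neither the annotation nor how strand was used in counting is given in the sources used here. Counts as deposited were whole, so no rounding was needed, but 55.2% of counts from 1 to 20 were even, and they were treated like estimated counts. Replicates differed beyond sampling noise (chi-square divided by its degrees of freedom 6.72 to 28.8), so none was counted as a repeat.

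Groups came from the sample titles. edgeR 4.0.16 (R 4.3.3) fitted all features that passed filterByExpr (15432 of 22554), with TMM factors, robust quasi-likelihood dispersion and group as the only term, and p-values were Benjamini-Hochberg adjusted over all of them. Non-overlap was read from TMM-scaled CPM. The fit was tested on simulated data with 15432 genes, where 200 genes were changed, more than were called here. It called 33.2% of genes changed by 1.25-fold, 64.1% of those changed by 1.5-fold and 81.7% of those changed by 2-fold. Of the unchanged genes it called 0.0971%, beside 0.0648% of all features called in the real data. The simulation therefore does not vouch for the features called here. Alternatives were DESeq2 1.42.0, limma 3.58.1 on voom values and on log2(FPKM + 1) or log2(FPKM + 0.1), other factors and filters, the replicate number as a block and leaving out samples. GENCODE release 29 and RefSeq tables gave coordinates and sequences.

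The members, gene lists and tests were chosen with earlier results of these data known. Named genes are the 10 members, and from each list the 2 genes with the smallest p, any past the threshold and the most abundant per length. NFKBIA, TNFAIP3, STEAP1B, PF4, PPBP, CXCL5, CXCL6, ERBB2, the fibroblast and leukocyte markers and the other receptors were added after their values were seen. The other genes named for overlapping IL6 or LIF have no values here.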

Additional observations from a re-analysis of the deposited data

Results flagged for a closer look

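Of 48 named genes with counts above 0, checked in both groups (96 checks), 10 had 1 sample far from the other 3 of its group, with a gap, as a share of the group's range, above Dixon's 95% critical value; chance gives about 1 in 20. Among the cytokine and chemokine genes these were IL1A in LDL sample 4 (0.902 of the range, 69.0 CPM against 37.7 to 40.7) and CCL2 in LDL sample 3 (0.871, 3.52 CPM against 2.18 to 2.35). IL18 stood apart in LDL sample 4 (0.857, 55.9 CPM against 35.0 to 38.0). In LDL sample 1 SIGIRR was low (0.899, 24.2 CPM against 30.8 to 31.6) and CNOT1 high (0.86, 259 CPM against 203 to 211). In the controls CASP8 was high in sample 2 (0.831, 43.4 CPM against 38.9 to 39.7) and CXCL16 low in sample 1 (0.837, 16.6 CPM against 17.7 to 17.9). The genes named after their values were seen added COL1A1, low in LDL sample 4 (0.872, 146 CPM against 366 to 398), LIFR, low in control sample 4 (0.836, 27.3 CPM against 32.3 to 33.3), and CXCL6, above 0 in LDL sample 2 alone of its group (a gap of 1, the whole range) at 0.058 CPM, under the level of 3 counts.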

How the results depend on the processing

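None of the 10 genes passed an adjusted p under 0.05 in any of 19 other settings. CSF2, CXCL8, CXCL1, CXCL2, CCL2, IL1A, IL1B and LIF stayed above 0 in all of them. IL6 (-0.0018) turned to 0.039 and 0.022 without control samples 1 and 3, 0.13 without LDL sample 1 and 0.070 without LDL samples 1 and 4, and ran from -0.090 to 0.13 with 1 sample left out. CXCL3 (-0.0026) turned to 0.052 and 0.013 without control samples 2 and 3, 0.25 without LDL sample 4 and 0.15 without LDL samples 1 and 4, and ran from -0.18 to 0.25 with 1 sample left out. The sum of the 3 copies gave 0.13, but 89.1% to 92.3% of it is CXCL1, so it is no value of CXCL3 itself.

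Over all features 4 were higher and 6 lower. DESeq2 gave 17 and 30, FPKM with a pseudocount of 1 and no minimum 1 and 1, and a pseudocount of 0.1 left 2 lower. With 1 sample left out the counts ran from 1 to 47 higher and 1 to 102 lower, and without LDL samples 1 and 4 they were 108 and 140. The replicate block gave 1 and 1; same-numbered samples share only a number (correlations of their deviations -0.092 to 0.026). In the lists, IER3 made 1 higher NF-kB gene without LDL samples 1 and 4, and CNOT1 made 1 lower RNA-binding regulator there and without LDL sample 1 (0 to 1 with 1 sample left out). The causes were not tested. Counts were low for CSF2 (136 to 266) and CCL2 (76 to 122), and how far depth limits these genes was not tested.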
